A study of Mus musculus with 5 samples.

Results

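The genes of the C/EBP family of transcription factors, Cebpa, Cebpb, Cebpd, Cebpe and Cebpg, were examined for RXRα binding in alveolar macrophages (AMs). A peak was given to one of these 5 genes where the transcription start site (TSS) of that gene was the nearest TSS of any protein-coding gene to the midpoint of the peak. Of 14808 peaks in 4 libraries, 81 met this rule. Cebpb had most of them, Cebpa and Cebpg had a few, Cebpd had 1 and Cebpe had none. This order depended on the set of start sites. With GENCODE gene starts in place of transcript starts, a Tmem189 transcript that starts inside Cebpb took most Cebpb peaks, leaving Cebpb 1 and 2 for WT A and WT G and 0 for either KO library, fewer than Cebpa with 3 and 6. RefSeq gene starts, tried after seeing the data, left Cebpb 25, 33, 2 and 3. In the RXR-deficient cells, the peaks that remained near these genes all lay downstream of Cebpb.

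RXRα binding was measured by HT-ChIPmentation, in which fixed chromatin is immunoprecipitated and the sequencing adapters are inserted by a transposase on the beads. AMs were sorted from the bronchoalveolar lavage of 9-wk-old mice on a C57BL/6J background. The 2 control libraries (WT A and WT G) came from mice of the genotype CD11cCre- Rxrabfl/fl, and the 2 deficient libraries (KO A and KO G) from CD11cCre+ Rxrabfl/fl mice, in which Cre removes floxed Rxra and Rxrb under the control of Cd11c. The controls carried both floxed alleles as well and received no treatment by the labels. Cd11c is active in AMs and in other Cd11c-expressing cells, so deletion depends on that promoter. Nothing in the labels says whether the libraries of a genotype came from separate mice, so the spread between them may be technical.

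Called against a shared input, the WT A list had 4751 peaks, the WT G list 9766, the KO A list 83 and the KO G list 208. The depth of the libraries, derived from the peak statistics and relative to the input, was 1.13 and 0.237 for WT A and WT G, and 0.648 and 0.849 for KO A and KO G. WT A was 4.77 times deeper than WT G although its list was shorter, and both KO libraries were deeper than WT G. Of 12 AM marker genes, 8 had a region with a peak in both WT lists nearest to them, as did 0 of 5 neutrophil, 0 of 3 annotated T cell, 1 of 3 B cell (Ms4a1) and 0 of 4 alveolar epithelial marker genes. Over all protein-coding genes the share was 8.82%, so that 0 in lists as short as these says little. These counts describe binding and do not measure expression.

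C/EBP proteins are basic leucine zipper factors that bind DNA as dimers, with each other or with related zipper proteins. C/EBPα is needed for the commitment of progenitors to the myeloid lineage, and C/EBPβ for the differentiation and inflammatory response of macrophages, AMs among them. C/EBPδ is an acute phase factor that is induced by inflammatory stimuli, C/EBPε acts in the late maturation of granulocytes, and C/EBPγ lacks a strong activation domain and mainly acts as a dimer partner. RXRα is a nuclear receptor that binds direct repeats of a hexamer, usually as a heterodimer with receptors such as PPARγ and LXR.

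The sequences below are windows of 101 bases on the plus strand of mm10, centred on the summit of the WT peak with the highest −log10 q in the region. They cover the Cebpb regions with a peak in a KO library and, for Cebpa and Cebpg, the region in both WT lists that has the highest −log10 q by the WT A list. By the WT G list, −20.3 kb was the stronger Cebpa region. Each region is named by its distance from the TSS in the direction of transcription. Capitals mark every match to the motifs searched: direct repeats DR1 to DR5, C/EBP, PU.1, AP-1, STAT and RUNX. A match on the minus strand is shown as its reverse complement.
Cebpb +35.1 kb, chr2:167724049-167724149: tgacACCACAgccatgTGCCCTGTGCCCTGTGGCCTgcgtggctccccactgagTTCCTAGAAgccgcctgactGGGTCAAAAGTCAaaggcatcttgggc
Cebpb +46.3 kb, chr2:167735000-167735100: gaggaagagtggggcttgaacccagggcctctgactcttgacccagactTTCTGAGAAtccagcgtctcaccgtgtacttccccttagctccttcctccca
Cebpb +84.3 kb, chr2:167773038-167773138: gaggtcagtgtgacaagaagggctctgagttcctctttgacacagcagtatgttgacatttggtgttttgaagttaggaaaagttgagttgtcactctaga
Cebpa −28.7 kb, chr7:35090463-35090563: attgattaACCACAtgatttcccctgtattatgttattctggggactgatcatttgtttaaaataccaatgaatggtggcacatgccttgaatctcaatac
Cebpg +28.7 kb, chr7:35027100-35027200: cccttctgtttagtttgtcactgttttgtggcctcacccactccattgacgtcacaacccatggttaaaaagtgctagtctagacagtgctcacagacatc

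Peaks nearest to the 5 genes numbered 30 and 46 for WT A and WT G, and 2 and 3 for KO A and KO G. The genotypes did not overlap, and the WT lists held 15.2 times as many on average (38.0 ± 11.3 against 2.50 ± 0.707, SD, n = 2 each, exact permutation test, two-sided, p = 0.333, the smallest p that 2 against 2 can give). As a share of the list, member peaks made up 0.631% of WT A (95% exact binomial interval 0.426 to 0.900%), 0.471% of WT G (0.345 to 0.628%), 2.41% of KO A (0.293 to 8.43%) and 1.44% of KO G (0.298 to 4.16%). The intervals cover counting error only. By share, the KO lists stood 3.49 times above the WT lists (exact permutation test, two-sided, p = 0.333), while the interval of each KO share reached below both WT shares. This direction turned with the TSS set, since with gene starts, or with starts of any gene type, neither KO list had a member peak and the KO share was 0%.

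**Figure D1:**
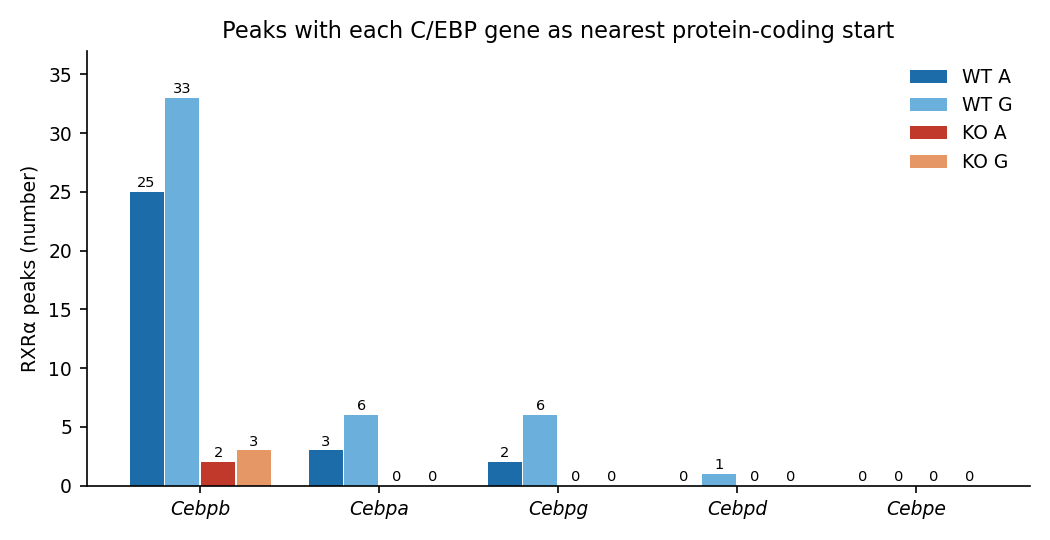
Number of RXRα peaks (y axis) whose nearest protein-coding TSS is that of each C/EBP gene (x axis), in each of the 4 libraries (colours, 1 bar a library, with the number above it). Cebpb held 25 and 33 peaks in the WT libraries and the only KO peaks, 2 and 3.

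Cebpb (ENSMUSG00000056501.3, chr2:167688915-167690418, plus strand) had 25 and 33 peaks in the WT libraries A and G, and 2 and 3 in the KO libraries A and G. Merging overlapping WT peaks gave 34 Cebpb regions. Both WT lists had a peak in 15 of them, WT A alone in 1 and WT G alone in 18. Of all 1933 protein-coding genes nearest to at least 1 region in both lists, 2 had more of these regions than Cebpb: Klf6, a zinc finger factor, and Trib1, a pseudokinase that directs C/EBPα to degradation, with 16 each. Most such genes had few, the median being 1. The stretch of chromosome closer to the Cebpb TSS than to any other protein-coding TSS was 135 kb long, against 969 kb for Klf6 and 321 kb for Trib1. Cebpb thereby held 11.1 regions per 100 kb, and ranked 12 of the 89 genes with at least 5 regions by this density.

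The Cebpb regions formed a series from the promoter to about 88 kb downstream. Among the 15 shared by WT A and WT G, 14 were downstream of the TSS and 1 was upstream. The stretch nearest to Cebpb itself reached 13.7 kb upstream and 122 kb downstream, so the downstream side offered more room. Regions between +2.06 and +38.4 kb overlapped A530013C23Rik, a long intergenic noncoding RNA gene downstream of Cebpb on the same strand (chr2:167691177-167729172). Further regions were intergenic, and the region at +87.7 kb lay over the start of another noncoding RNA gene, Gm14321. Gene starts of noncoding genes were not used for the assignment.

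**Figure D2:**
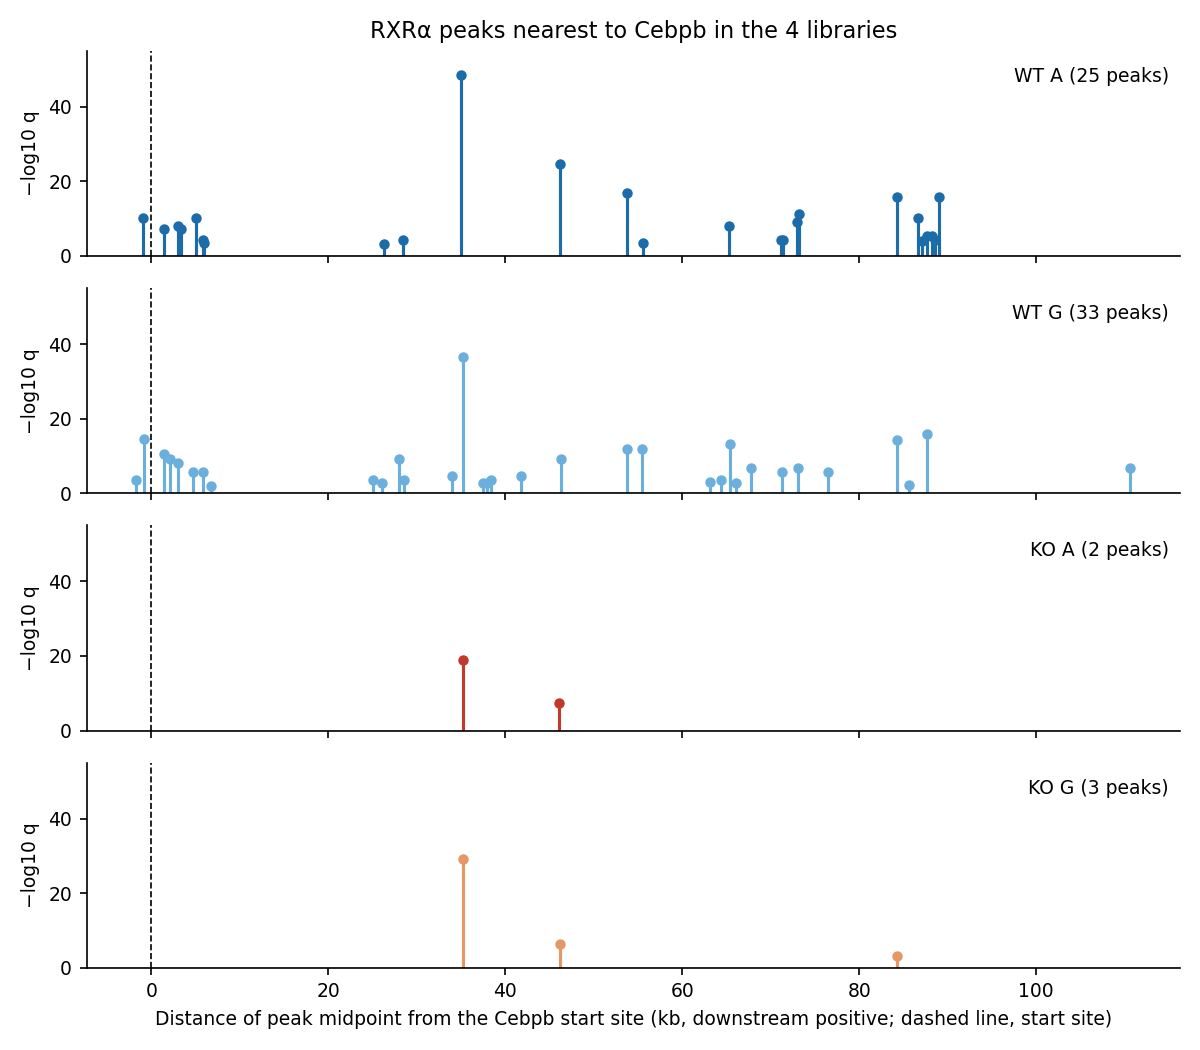
Peaks nearest to Cebpb in the 4 libraries, 1 panel each, by distance of the midpoint from the TSS (x axis, kb) and −log10 q at the summit (y axis). The peak at +35.1 kb was the highest in every library, and KO A and KO G kept 2 and 3 of the positions seen in the WT libraries.

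The strongest Cebpb region, at +35.1 kb (chr2:167723521-167724593), lay in an intron of A530013C23Rik. It had a peak in all 4 libraries, where the −log10 q was 48.5 (WT A), 36.4 (WT G), 18.9 (KO A) and 29.3 (KO G). By this value it ranked 3 of 4751, 10 of 9766, 10 of 83 and 6 of 208 peaks in the same order. The deposited fold enrichment, which adds 1 to the summit pileup and to the local background, was 21.2, 20.0, 12.2 and 16.0. The 4 summits lay within 40 bp of each other.

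Because −log10 q and fold enrichment grow with depth, the number of fragments at each summit was derived and divided by the genome-wide background of its library, here called the enrichment. At +35.1 kb the summits held 53 and 30 fragments for WT A and WT G, and 23 and 30 for KO A and KO G. The enrichment was 37.4-fold in WT A (95% Poisson interval of the fragments 28.0 to 48.9), 54.4-fold in WT G (36.7 to 77.7), 23.8-fold in KO A (15.1 to 35.7) and 32.1-fold in KO G (21.6 to 45.8). Both WT values were above both KO values, but the counting intervals overlapped in each WT and KO pair except WT G and KO A. The mean was 45.9 ± 12.1 in WT and 27.9 ± 5.83 in KO (SD, n = 2 each), a ratio of 1.64 (exact permutation test, two-sided, p = 0.333, the smallest possible). The region thus kept 60.9% of its mean WT enrichment in the cells with Cre, a difference that this design cannot place beyond the spread between libraries. With 1 library left out the ratio ranged from 1.34 (without WT G) to 1.95 (without WT A).

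The region at +46.3 kb (chr2:167734898-167735621, intergenic) also had a peak in all 4 libraries. In the order WT A, WT G, KO A, KO G its summits held 33, 12, 14 and 13 fragments, and the enrichment was 23.3, 21.8, 14.5 and 13.9-fold. Both WT libraries were again above both KO libraries, at 22.5 ± 1.05 against 14.2 ± 0.426 (SD, n = 2 each), a ratio of 1.59 (exact permutation test, two-sided, p = 0.333). The Poisson intervals of the fragments were 16.0 to 32.7-fold in WT A and 11.3 to 38.0-fold in WT G. For KO A and KO G they were 7.92 to 24.3-fold and 7.40 to 23.8-fold. These counting intervals overlapped in every WT and KO pair and were wider than the SDs. The −log10 q of the region was 24.6, 9.26, 7.30 and 6.31 in the order WT A, WT G, KO A, KO G, and the summits spanned 57 bp.

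The region at +84.3 kb (chr2:167772853-167773611, intergenic) had a peak in 3 libraries. In WT A, WT G and KO G its summits held 25, 17 and 10 fragments, for an enrichment of 17.6, 30.9 and 10.7-fold, and a −log10 q of 15.8, 14.2 and 3.16. KO A had no peak there. The weakest peak at the background level in KO A had 10 fragments, or 10.4-fold, close to the KO G value, so that a level like that of KO G in KO A could have gone uncalled.

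**Figure D3:**
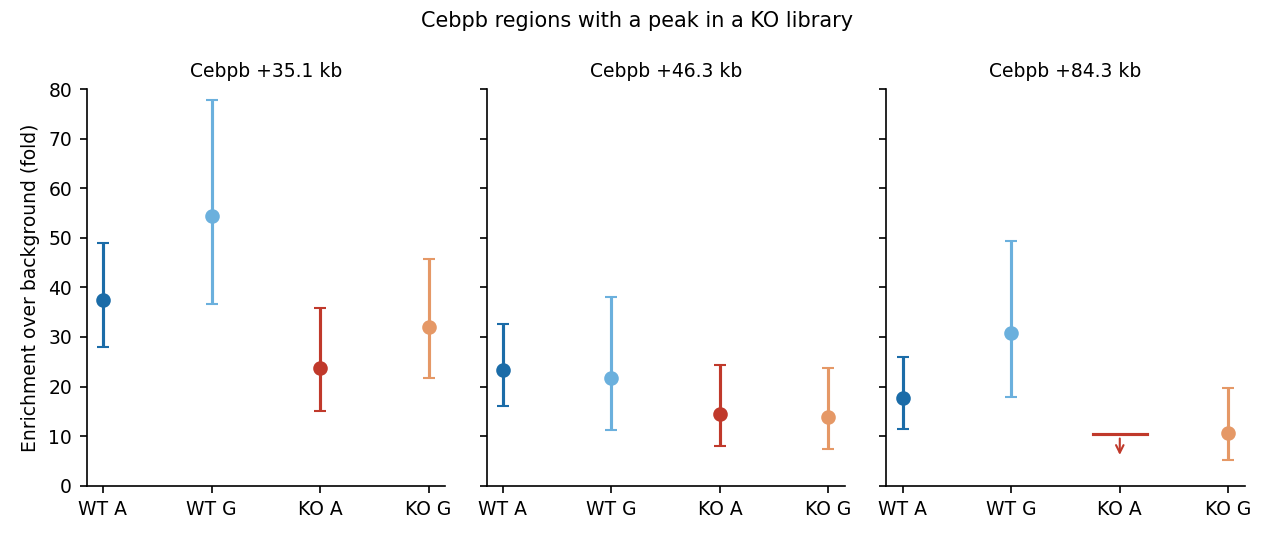
Enrichment of fragments over the genome-wide background (y axis, fold) at the 3 Cebpb regions with a peak in a KO library (panels), in each of the 4 libraries (x axis). Points are single libraries, bars are 95% Poisson intervals of the fragment count, and the line with an arrow marks the lowest level called in KO A (10.4), where +84.3 kb had no peak. At +35.1 and +46.3 kb both WT points stood above both KO points. The bars overlapped in each WT and KO pair at these positions, except WT G and KO A at +35.1 kb.

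These 3 regions alone among the 19 C/EBP regions in both WT lists had a KO peak, which is 15.8% (95% exact binomial interval 3.38 to 39.6%). The interval covers counting error only and takes the regions as independent, although 15 of the 19 lie at Cebpb. Over all 3423 regions in both WT lists, 5.87% had a KO peak. Whether the shares differ was not tested. Over all 48 C/EBP regions of either WT list the share was 6.25%. The remaining 16 of the 19 had no KO peak, and for 4 of them the WT A enrichment was below the lowest level called in KO A, though above that in KO G. The weakest peak at background level stood at 10.4-fold in KO A and 8.55-fold in KO G. Both WT values were above both of these levels in 15 of the 19 regions, as in 75.5% of all regions. Some stood barely above them, such as the Cebpa promoter at 10.6-fold in WT A. Of those 15, 12 had no KO peak, 8 of them at Cebpb, 3 at Cebpa and 1 at Cebpg. A KO peak was present in 3 of the 15, beside 7.67% over all regions above these levels.

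Among the 8 at Cebpb, the region over the Gm14321 start, at +87.7 kb (chr2:167775082-167778168), was the widest at 3087 bp. It held 6 separate peaks in WT A and a single broad one in WT G, with an enrichment of 18.3 and 30.9-fold and a −log10 q of 15.8 and 15.9. These values were close to those of +84.3 kb, which kept a peak in KO G. The region at +53.7 kb (chr2:167742204-167743093) had 27 fragments in WT A and 14 in WT G, an enrichment of 19.0 and 25.4-fold and a −log10 q of 17.0 and 11.8. In WT A it exceeded +84.3 kb by fragments and −log10 q, yet neither KO library had a peak there. The region at +73.1 kb (chr2:167761472-167762494) reached 14.8 and 21.8-fold.

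The Cebpb promoter was covered by a region at −0.85 kb (chr2:167687495-167688631, 1137 bp). It had 20 fragments in WT A and 16 in WT G, an enrichment of 14.1 and 29.0-fold and a −log10 q of 10.2 and 14.5. Within the transcribed part of Cebpb and its first kilobases downstream lay 4 more regions in both WT lists, at +1.45, +2.97, +4.69 and +5.80 kb, with a WT A enrichment of 9.16 to 14.1-fold and a WT G enrichment of 16.3 to 23.6-fold. The +4.69 kb region (chr2:167693031-167694182) was the strongest of these in WT A, with a −log10 q of 10.2, and had 5.73 in WT G. Neither the promoter region nor any of these 4 regions had a KO peak. The other regions in both lists, at +28.6, +55.5, +65.4 and +71.3 kb, ranged in −log10 q from 3.47 to 8.06 (WT A) and from 3.61 to 13.2 (WT G). The enrichment in WT A was below the lowest level called in KO A at +5.80, +28.6, +55.5 and +71.3 kb.

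The enrichment of the 18 Cebpb regions found in WT G only ranged from 10.9 to 21.8-fold and their −log10 q from 1.85 to 9.26, with the highest values at +2.06 and +28.0 kb. The values at these positions equalled that of +46.3 kb in WT G, so the ranges of shared and single regions overlapped. The farthest, at +110.6 kb, stood alone beyond the series. The region found in WT A only, at +26.3 kb, had 14 fragments and a −log10 q of 3.20.

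Cebpa (ENSMUSG00000034957.10, chr7:35119293-35121928, plus strand) had 3 peaks in WT A, 6 in WT G and none in either KO library. All 3 WT A peaks were matched in WT G, at the promoter, at −20.3 kb and at −28.7 kb. At the promoter (chr7:35118956-35119339), which an antisense noncoding gene, Gm45091, also overlaps, there were 15 fragments in WT A and 11 in WT G, an enrichment of 10.6 and 20.0-fold and a −log10 q of 6.16 and 8.04. The −20.3 kb region (chr7:35098769-35099210, intergenic) had an enrichment of 10.6 and 23.6-fold and a −log10 q of 6.16 and 10.5. The −28.7 kb region (chr7:35090368-35090721) overlapped an exon of the noncoding gene Gm35611, with 12.0 and 23.6-fold and a −log10 q of 7.14 and 10.1. It lay close to the midpoint between the Cebpa and Cebpg start sites, so its assignment to Cebpa turned on a short distance. All 3 were above the lowest levels called in KO A (10.4-fold) and KO G (8.55-fold), which had no peak at any of them. In WT A, however, the promoter and −20.3 kb regions, at 10.6-fold, stood barely above the KO A level. A level like that of WT A in KO A could have gone uncalled there. In WT G only, weaker peaks lay at −29.7, −28.1 and +8.62 kb, with a −log10 q of 2.95 to 4.64. With the TSS of any gene type, Cebpa had 1 peak in WT A and 1 in WT G. A −log10 q of at least 5 left it 3 in WT A and 3 in WT G.

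The summits at the Cebpa promoter lay 20 bp apart. Below are the 250 bases before the TSS, from RefSeq (GRCm38.p6, plus strand), shown because both WT summits fall in them, with capitals from the WT A summit to the WT G summit.
Cebpa promoter, chr7:35119043-35119292: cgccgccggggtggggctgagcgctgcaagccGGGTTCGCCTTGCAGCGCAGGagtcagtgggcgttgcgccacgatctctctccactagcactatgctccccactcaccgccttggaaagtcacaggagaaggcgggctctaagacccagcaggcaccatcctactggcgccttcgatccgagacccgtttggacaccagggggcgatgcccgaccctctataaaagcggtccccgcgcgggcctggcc
From 250 bases before to 50 after the TSS, no match to DR1 or to the C/EBP motif was found on either strand. DR1 was present in 3.86% and the C/EBP motif in 18.5% of 32851 RefSeq promoters of the same length.

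Cebpg (ENSMUSG00000056216.9, chr7:35046422-35056573, minus strand), which lies beside Cebpa, had 2 peaks in WT A, 6 in WT G and none in the KO libraries. In contrast to Cebpa, 1 region was in both WT lists, at +28.7 kb (chr7:35026941-35027455) in an intron of Pepd. It had 19 fragments in WT A and 7 in WT G, an enrichment of 13.4 and 12.7-fold and a −log10 q of 6.33 and 3.61. The 5 regions in WT G only, of which 2 were at the promoter, 2 in an intron and 1 near a transcript end, had 6 or 7 fragments each and a −log10 q of 2.63 to 3.61. WT A had no peak at the promoter of Cebpg although it was the deeper library. Its other peak, at −8.50 kb, had 16 fragments and a −log10 q of 7.14, and was absent from WT G. The Cebpg counts depended on the setting. For WT A and WT G they were 1 and 2 with RefSeq gene starts, and 0 and 3 with the TSS of any gene type. At a −log10 q of at least 5 they were 2 and 0, which leaves no Cebpg region in both lists.

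**Figure D4:**
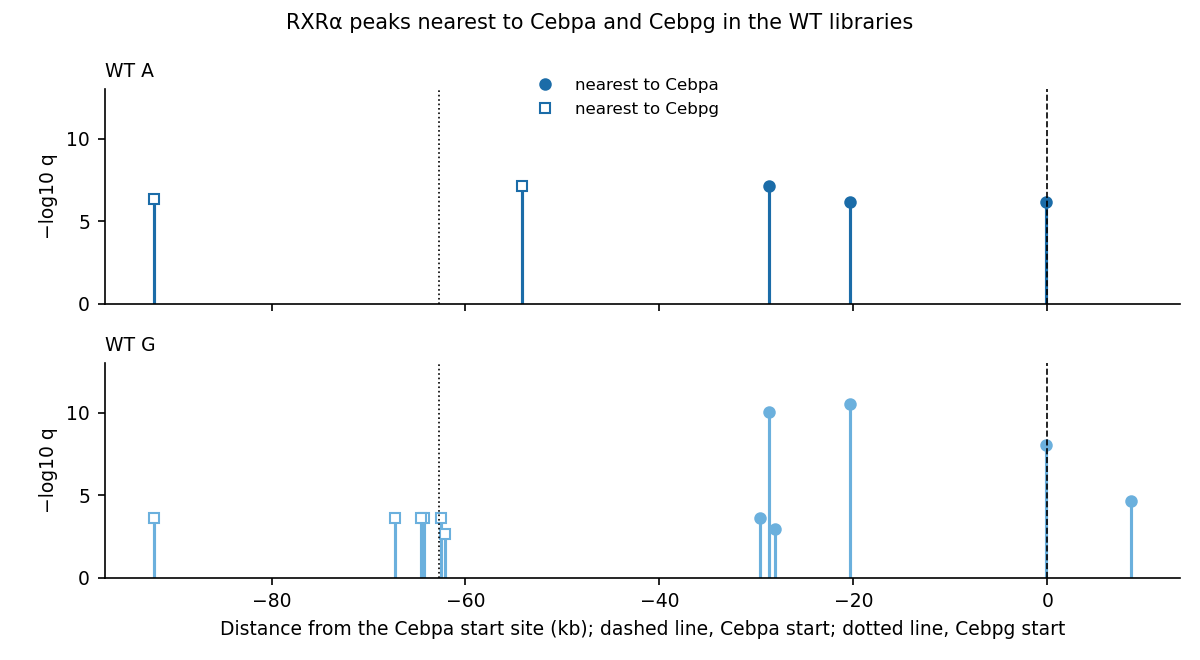
Peaks nearest to Cebpa (filled circles) and Cebpg (open squares) in WT A and WT G, by distance from the Cebpa TSS (x axis, kb) and −log10 q (y axis). The 3 Cebpa positions of WT A recurred in WT G, whereas 1 of the 2 Cebpg positions did. The KO libraries had no peak here.

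Cebpd (ENSMUSG00000071637.5, chr16:15887286-15891031, plus strand) had a single peak, in WT G, at +2.70 kb (chr16:15889629-15890333) within the gene, where Spidr also overlaps. It had 9 fragments, an enrichment of 16.3-fold and a −log10 q of 5.73. Cebpe (ENSMUSG00000052435.7, chr14:54710360-54712174, minus strand) had no peak in any library by the nearest-TSS rule. Counting any peak within 50 kb of the TSS gave it 1 peak in WT A and 1 in WT G. For WT A a count of 0 leaves a share of up to 0.0776% of the list within the 95% exact binomial interval, and for WT G up to 0.0378%. The stretches nearest to these genes measured 142 kb for Cebpd and 41.5 kb for Cebpe, so Cebpd had about as long a stretch as Cebpb.

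The WT lists were also compared with each other at the C/EBP genes. Of the 30 member peaks in WT A, 28 (93.3%) were overlapped by a WT G peak, beside 83.2% of all WT A peaks. Of the 46 in WT G, 19 (41.3%) were overlapped by a WT A peak, beside 36.1% of all WT G peaks. After merging, 19 of 48 C/EBP regions had a peak in both lists, beside 32.7% of all regions. At these 19 regions the WT A and WT G summits were a median of 115 bp apart (range 7 to 394 bp) and 8 lay within 50 bp, against a median of 96 bp and 27.4% within 50 bp over all 3423. The summits at +35.1, +46.3, +84.3 and +87.7 kb were among the close ones, 27, 7, 32 and 27 bp apart. The median enrichment was 12.7-fold in WT A and 23.6-fold in WT G at the C/EBP regions, and 12.0 and 20.0-fold over all regions, with WT G higher in both sets.

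**Figure D5:**
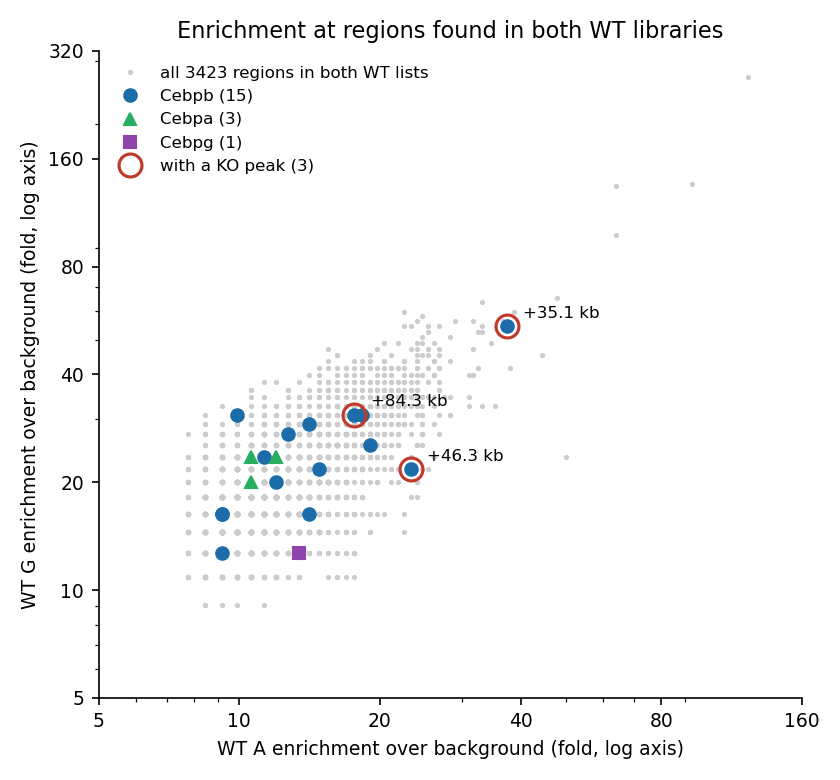
Enrichment over background (fold, log axes) in WT A (x) and WT G (y) at the 3423 regions in both WT lists (grey) and at those of Cebpb, Cebpa and Cebpg (coloured, some with identical values overlap). Red rings mark the 3 regions with a KO peak. Cebpb +35.1 kb, at 37.4 and 54.4-fold, stood above the other 18 C/EBP regions in both libraries.

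The windows of 101 bases were searched on both strands for direct repeats of AGGTCA with up to 2 mismatches in total. DR1 (AGGTCANAGGTCA) was found in 1 of the 19 C/EBP regions, Cebpb +35.1 kb, beside 6.34% of all regions. That window held 3 matches, each with 2 mismatches. AGGGCACAGGGCA and AGGCCACAGGGCA on the minus strand overlapped each other and were centred 28 and 21 bp before the summit, at bases 17 to 29 and 24 to 36 of the window, and GGGTCAAAAGTCA on the plus strand was centred 30 bp after it, at bases 75 to 87. At +4.69 kb a DR2 (AGGTCANNAGGTCA) match with 1 mismatch, AGGTCAGGAGTTCA, was centred 3 bp after the summit. DR4 was found at +53.7 kb and DR5 at +2.97 kb, with 2 mismatches each, and DR3 at none. DR2, DR4 and DR5 were thus each in 1 of the 19 regions. Over all regions, DR2 was in 2.54%, DR3 in 2.02%, DR4 in 1.9% and DR5 in 2.57%.

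The C/EBP motif (TTGCNNAA or TTACNNAA) was in 0 of the 19 windows, beside 19.4% of all regions. These letters were thus not in the summit windows of the family's own genes, which says nothing of C/EBP binding there. The STAT motif (TTCNNNGAA) was in 2 of 19, beside 3.77%, and both were regions with a peak in all 4 libraries: TTCCTAGAA at +35.1 kb, centred 8 bp after the summit, and TTCTGAGAA at +46.3 kb, 3 bp after it. RUNX (TGTGGT) was in 4 of 19, beside 14.3%, at +35.1 and +53.7 kb of Cebpb and at −28.7 and −20.3 kb of Cebpa. PU.1 (AGGAAGT) was in 1, beside 10.7%, and AP-1 (TGANTCA) in 0, beside 7.51%. A match is a description of the sequence and not a measured site.

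At least 1 region in both WT lists lay nearest to 3 of the 5 family genes, beside 8.82% of the 21904 protein-coding genes. Among 11 genes for dimer partners and regulators of C/EBP, 5 had one. Trib1 had 16, the strongest at +124 kb with 25.9 and 11.8 as its −log10 q in the WT A and WT G lists. Nfil3, a zipper repressor, had 5, the strongest with 15.8 and 13.2. Batf, an AP-1 family zipper protein, had 2, and Ddit3, which encodes the C/EBP dimer partner CHOP, and Dbp, a zipper factor of the circadian clock, had 1 each. At Ddit3 the region was at the promoter, with a −log10 q of 7.14 and 6.88. Of 23 myeloid genes known as C/EBP targets, 10 had a region, among them Cd14, Il6, Il1b, Chil3, Marco, Ltf, Ptgs2, Ccl2 and Pparg. Chil3, which encodes a chitinase-like protein of AMs, was among the strongest, with a −log10 q of 25.2 and 21.7, and Pparg, an RXR partner, had 3 regions, the strongest with 14.7 and 21.8. No gene of these lists had a KO peak in KO A or KO G. Of all regions in both WT lists, 5.87% had one, which is a share of regions and not of genes. A count of 0 over lists this short does not set these genes apart.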

How the data were processed

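Reads were trimmed by the authors (Cutadapt 1.7.1) and mapped with Bowtie2 against mm10. Proper pairs over Q30 without duplicates were kept (samtools 0.1.18). The authors called peaks per library against the input with MACS3 3.0.0a5 at a q-value threshold of 0.05. The deposited narrowPeak lists give fold enrichment (a ratio with a pseudocount of 1), −log10 p and −log10 q, a score and the summit offset. The deposited −log10 q and score are on 1 scale. From fold enrichment and −log10 p, the whole number of fragments and the background at each summit were solved (p as a Poisson tail), tested on simulated data. All peaks could be solved within 1%. Genes were assigned by TSS of GENCODE M21 basic transcripts. Overlap was at least 1 bp. Analyses used Python 3.11.15 with scipy 1.17.1 and pysam 0.24.0. Groups came from the labels. The members and lists were chosen with earlier results of these data known. Regions with a peak in both WT lists or in a KO list were described in full, up to the 8 with the highest −log10 q in WT A for each gene, and the rest by range. The numbers of peaks were compared by an exact permutation test. The alternatives tried were other TSS sets, thresholds, overlaps and motif windows, and leaving out each library. The input has no peak list and was not analysed here.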

Additional observations from a re-analysis of the deposited data

How the results depend on the processing

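The excess of WT over KO peaks kept its direction in every alternative that gave a value, with 12.0 to 19.0 times when 1 library was left out. The share of list, KO over WT, was 2.62 to 4.37 with 1 library left out, but turned to 0 under both GENCODE alternatives for the start sites. The letters A and G recur in both genotypes, but nothing says that they pair the libraries. With the letter as replicate block the ratio was 15.2 (share 3.42). The assignment to Cebpb depended on the TSS set. With gene starts in place of transcript starts, where a noncoding Tmem189 transcript starting inside Cebpb takes over the downstream peaks, 6 and 15 peaks remained for WT A and WT G and 0 for either KO list, and 5 regions were in both lists, 0% with a KO peak. With the TSS of any gene type the values were 2, 7, 0 and 0 peaks and 2 regions, 0% with a KO peak. In both cases the ratio of WT to KO numbers could not be formed and the KO over WT ratio of shares was 0. With RefSeq gene starts, chosen after seeing the data, 29, 42, 2 and 3 peaks and 18 regions remained. WT G fell to 23 peaks at a −log10 q of at least 5 and also with WT G held to as many peaks as WT A had. WT A fell to 19 when any peak within 50 kb was counted. That setting gave Cebpe 1 peak in WT A and 1 in WT G, and Cebpg 4 and 10. Requiring 50% overlap of both peaks left 5 regions, 40% with a KO peak, and without KO replicates A or G the share with a KO peak was 15.8 and 10.5%. DR1 was in 2 regions with 100 bp each side or at WT A summits, and in 0 at 1 mismatch. The C/EBP motif was in 1 with 100 bp each side and in 1 at WT A summits. RUNX was in 2 at WT A summits, both at Cebpb, beside 15.4% of all regions. It was in 3 at WT G summits, beside 13.7%, and in 5 with 100 bp each side, beside 26.5%. The weakest peak at background level stood at 10.4-fold in KO A and 8.55-fold in KO G, so lower levels there could have gone uncalled. What set these levels was not tested. The enrichment is derived, not counted.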
